A study of Mus musculus with 27 samples.

Results

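Chromatin accessibility in fibroblasts given all 3 cardiac reprogramming factors was compared with accessibility in fibroblasts given Mef2c alone, over every region of the count table that passed a filter on low counts. The members were 6 of the 24 libraries analysed: 3 of the group named GMT, which received Gata4, Mef2c and Tbx5, and 3 of the group named M, which received Mef2c. Both groups were fibroblasts of the neonatal mouse heart, of strain Cd-1, immortalised with large T antigen. They carry GFP under the alpha-MHC promoter, which is active in heart muscle cells, as a reporter. Both received their factors by retrovirus, were grown with sb431542, a TGF-beta receptor inhibitor, and xav939, a Wnt pathway inhibitor, and were taken unsorted at day 2. The factors that differ between the groups are therefore Gata4 and Tbx5, added together. The other libraries used here, 3 per group, came from the same line with the same inhibitors and carried the pairs Mef2c and Tbx5 (MT), Gata4 and Mef2c (GM) or Gata4 and Tbx5 (GT), or Tbx5 alone (T) or Gata4 alone (G). The control received dsRed, a red fluorescent protein, without inhibitors, so a comparison with it holds factors and inhibitors together. The 3 labelled samples of dsRed cells with inhibitors are not analysed here. The cells are 1 immortalised line, and the share that took up each virus is not given in the sources used here. What separates the replicates, which are labelled biological, is not stated, and p-values measure the spread between these libraries only.

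Gata4 is a zinc-finger protein, Tbx5 a T-box protein and Mef2c a MADS-box protein. All act in heart development, bind short DNA motifs in enhancers and promoters, and together are known for turning fibroblasts toward a cardiomyocyte-like state. ATAC-seq uses a transposase that cuts and tags open chromatin, so a count in a region rises with how accessible it is. In a mixed population, a region open in more cells and a region more open in each cell give the same count and cannot be told apart. Regions are named by mm9 coordinates. The gene table at hand is of another build, so no region was assigned to a gene, no sequence was read, and the cell type could not be checked against marker genes.

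Total counts were 241394, 817519 and 1059307 in the GMT libraries, against 625166, 1031724 and 456282 in the M libraries, and 241394 to 1704896 over all 24. Spearman correlations of log2 CPM (CPM being counts per 1000000 counts) over the 20494 regions tested were 0.688, 0.726 and 0.922 among GMT libraries and 0.881 to 0.929 among M libraries. The low values involve GMT replicate 1, the shallowest library, whose mean correlation was 0.707 with the other GMT libraries, 0.772 with MT, 0.675 with M and 0.75 with the control. With MT replicate 3 alone it correlated at 0.824, above its 0.688 and 0.726 with GMT replicates 2 and 3. The library labelled GT replicate 1 correlated at 0.941 with G replicate 1 and at 0.73 and 0.722 with the other GT libraries. Several of the values below are also given without one or the other of these libraries.

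Adding Gata4 and Tbx5 to Mef2c raised accessibility at more regions than it lowered. By edgeR's quasi-likelihood test with Benjamini-Hochberg adjustment over all regions tested, 3833 of 20494 regions were higher in GMT than in M (18.7%) and 1504 were lower (7.34%) at an adjusted p below 0.05, 26% in all. The median log2 fold change was 2.12 among higher regions and -1.63 among lower ones, against 0.02 over all regions tested. At least a 4-fold difference was fitted at 2193 higher regions (57.2%) and 490 lower regions (32.6%). The last region called had an adjusted p of 0.04997 and the first not called 0.0500004. Libraries of the 2 groups did not overlap at 3103 of the higher and 1436 of the lower regions. Over all regions tested, the GMT libraries lay wholly above M at 21.3% and wholly below at 18.2%.

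The excess of higher over lower regions depended on level and on scaling. The median log2 fold change was 0.31 at regions with a mean level of 3.71 up to the median level of regions tested, on the log2 CPM scale. It was -0.32 in the top 5% of regions by level, where 17 were higher and 98 lower. When offsets were fitted by loess against the mean count, 2692 regions were higher and 2344 lower, so that the higher regions made up 53.5% of the calls and not 71.8%. Without GMT replicate 1 the numbers were 3985 higher and 2004 lower, and 4215 and 1685 when the library labelled GT replicate 1 was left out of the shared fit. They fell to 2167 higher and 744 lower without GMT replicate 2, to 851 lower without GMT replicate 3, to 2337 higher and 997 lower without M replicate 1, and to 2316 higher without M replicate 2.

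**Figure D1:**
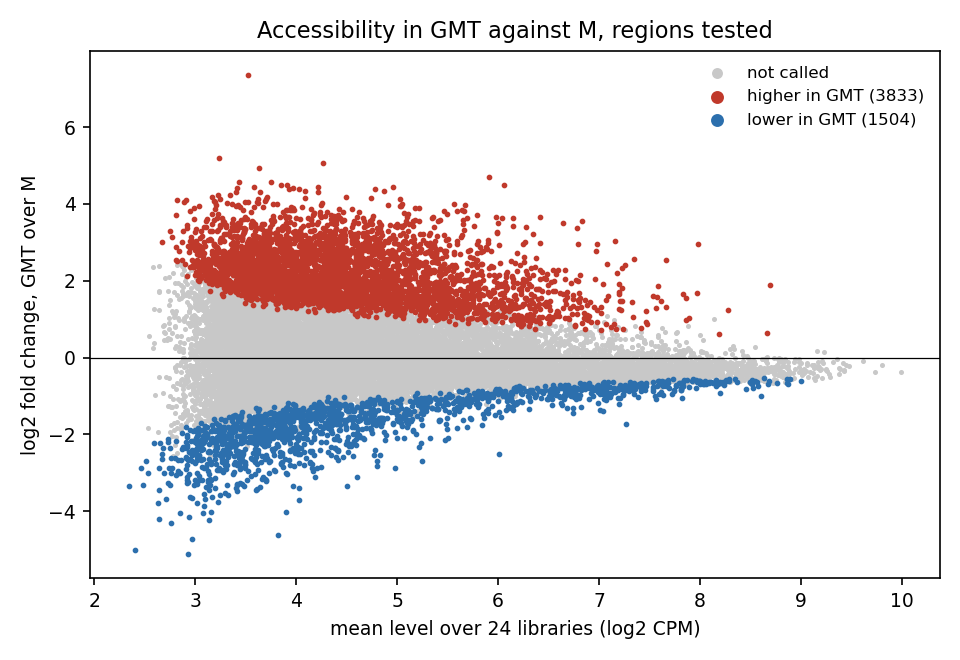
Each point is 1 of the 20494 regions tested. The x axis is the mean level over 24 libraries in log2 CPM and the y axis the log2 fold change of GMT over M; red points are the 3833 regions called higher in GMT and blue points the 1504 called lower. Higher regions are spread over low and middle levels, while few regions of the top 5% by level are higher.

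Regions higher in GMT were at a low level in M and in the control. Their median group level was 37.9 CPM in GMT and 8.39 CPM in M. The test used these 2 values. Groups it did not use stood at a median of 31.9 CPM in T, 29.5 CPM in GT, 26.1 CPM in MT, 14.3 CPM in G and 13 CPM in GM, and at 9.39 CPM in the control. By group median, those with Tbx5 were thus the high ones, and those without it were closer to the control. The exception by library was the one labelled GT replicate 1, at 15.2 CPM, against 42 and 27.6 CPM in the other GT libraries, which was at the level of the G libraries (15.4, 15.6 and 12 CPM). Without it the GT median was 34.8 CPM. In M, 2267 of the 3833 (59.1%) had a mean below 10 CPM, and in the control 2015 (52.6%) did, where 27.2% and 31.3% of all regions tested did. The higher regions took 15.1%, 23.9% and 21.2% of the counts over tested regions in the GMT libraries and 4.93%, 4.88% and 5.7% in the M libraries. These shares, like the 59.1% in M, come from the libraries that picked the regions, so they are no further evidence of a difference. GMT replicate 1 was the lowest of the GMT libraries at 77.1% of the higher regions and at 48.6% of all regions tested.

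Regions lower in GMT showed another order of groups. Their median was 14.8 CPM in GMT and 49.8 CPM in M. MT and GM lay between, at 23.4 and 24 CPM, GT, T and G were lowest, at 10.2, 9.53 and 11.1 CPM, and the control stood at 19.1 CPM. At these regions, therefore, the groups with Mef2c and 1 added factor were between Mef2c alone and all 3 factors, and the groups without Mef2c were below the control. GMT replicate 1 was the highest of the GMT libraries at 47.6% of the lower regions and at 34.1% of all regions tested.

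**Figure D2:**
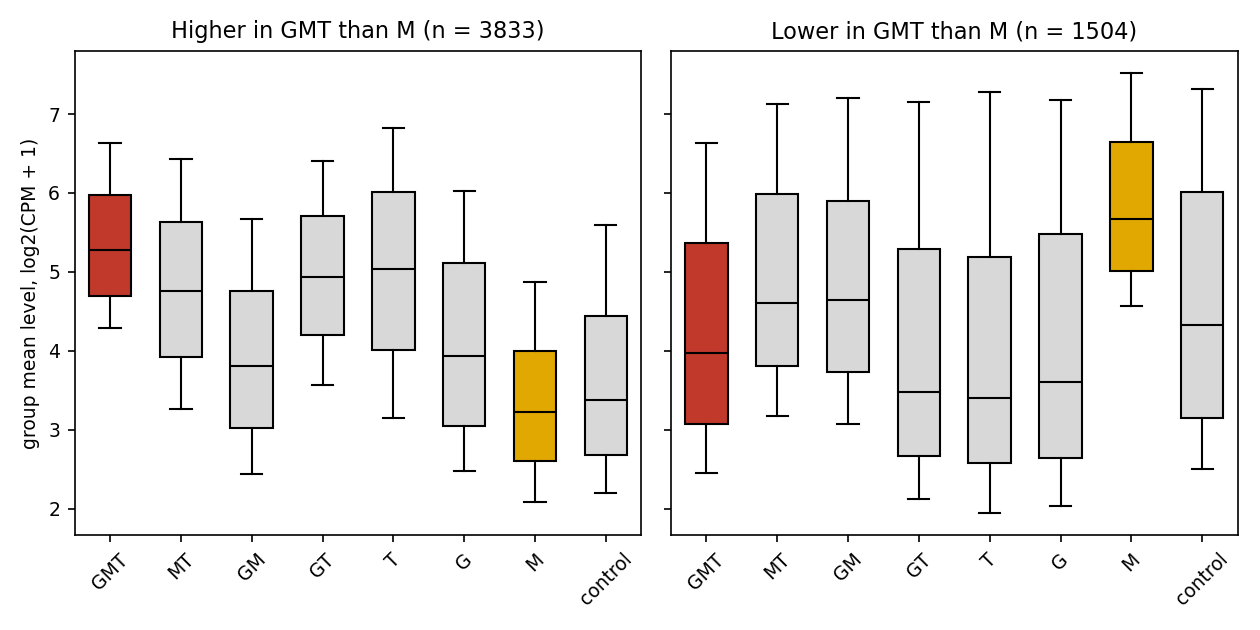
Boxes give the median and quartiles, and whiskers the 10th and 90th percentiles, of the group mean level in log2(CPM + 1) over the regions higher (left, 3833) and lower (right, 1504) in GMT than in M. GMT (red) and M (yellow) are the groups the test compared; at higher regions T, GT and MT lie near GMT, and at lower regions MT and GM lie between GMT and M.

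The regions named next are the 10 largest rises and the 10 largest falls by log2 fold change among called regions. Candidates had a mean level over all 24 libraries of at least 4.4 in log2 CPM, the median over regions tested. Their GMT and M libraries also had to be free of overlap. A region low in M or in GMT could thus pass more easily when other groups were high. The counts of calls among these rises and falls are therefore partly set by the rule. For them, the shares over all regions tested are not a like background. All 10 rises were also called higher in GT than in the control, as were 13.1% of all regions tested, and 8 of 10 were called higher in MT than in GM, as were 12%. Without the library labelled GT replicate 1 these counts were 10 and 10, and without GMT replicate 1 in the shared fit 10 and 9. The top-ranked rise was chr15:68243764-68244614, of 851 bp, at 120, 405 and 544 CPM in the GMT libraries, against 13.4, 13.4 and 15.5 CPM in the M libraries. Its log2 fold change was 4.70 ± 0.61 (SE, n = 3 per group; edgeR adjusted p = 5.52e-06). GMT replicate 1 was the low GMT library here, yet far above every M library. MT averaged 259 ± 120 CPM (SD, n = 3) and T 170 ± 52.2 CPM, whereas G had 17.9 ± 10.8 CPM, GM 25.8 ± 12.5 CPM and the control 15.8 ± 4.35 CPM.

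The second, chr17:73371686-73372265, had 241, 342 and 275 CPM in the GMT libraries, against 8.36, 16.5 and 11.1 CPM in the M libraries (log2 fold change 4.50 ± 0.58, edgeR adjusted p = 5.52e-06). It was highest in T, at 439 ± 109 CPM, followed by MT at 349 ± 21.8 CPM, and GM stood at 16.9 ± 5.48 CPM. In GT, replicates 2 and 3 had 309 and 195 CPM and the library labelled GT replicate 1 had 12.6 CPM. The same split of the GT libraries recurred at the fifth rise, chr6:94912490-94912998. There GMT had 88.3, 107 and 109 CPM, against 5.01, 5.17 and 4.44 CPM in M (log2 fold change 4.33 ± 0.60, edgeR adjusted p = 1.33e-05), and GT had 12.6, 122 and 89.6 CPM. All GMT libraries were close to one another at this region, and so were all M libraries.

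At 2 of the 10 rises MT and GM were not called different. At the third, chr2:103498551-103499088, GMT had 40.1, 237 and 153 CPM, against 5.01, 4.14 and 13.3 CPM in M (log2 fold change 4.44 ± 0.67, edgeR adjusted p = 3.08e-05). Here the pair GT averaged 136 ± 121 CPM, while MT had 41.5 ± 17 CPM, G 37.4 ± 12.2 CPM and T 35.7 ± 18 CPM. The groups with both Gata4 and Tbx5 had the highest means and the widest spread. The GT libraries had 30.3, 268 and 110 CPM, so the low library in GT, as in GMT, was the one labelled replicate 1. Without GMT replicate 2 the log2 fold change of GMT over M was 3.83. At the ninth, chr6:108654693-108655062, GMT had 84.3, 242 and 216 CPM, against 6.69, 16.5 and 8.87 CPM in M (log2 fold change 4.01 ± 0.53, edgeR adjusted p = 7.27e-06). T had 114 ± 53.9 CPM and GT 99 ± 68.9 CPM, and GM had 26.7 ± 3.93 CPM, close to 24 ± 7.56 CPM in the control.

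The other 5 rises were chr16:24367243-24367686, chr1:107904261-107904508, chr18:46786694-46787174, chr4:114031511-114031849 and chr4:147830454-147830768, with log2 fold changes of 4.38, 4.19, 4.16, 4.12 and 3.99. That of chr1:107904261-107904508 was 5.55 without M replicate 2, the M library with most of its counts. Over all 10, group means ran from 53.5 to 357 CPM in GMT, 41.4 to 349 CPM in MT and 35.7 to 439 CPM in T. They ran from 6.42 to 26.7 CPM in GM, 4.64 to 37.4 CPM in G, 2.28 to 14.1 CPM in M and 5.55 to 24 CPM in the control. GMT replicate 1 was the lowest GMT library at all 10. The largest fitted fold change of all fell outside the rule, for its low mean level, and was singled out after its values were seen. At chr9:111069178-111069382 the GMT libraries held 3, 23 and 34 counts and the M libraries none, which makes GMT at least 19.8-fold higher when M is set to a floor of 3 counts over its 3 libraries. GMT replicate 1 was low there in counts and is also the shallowest library.

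Among the 10 top-ranked falls, 7 were called higher when Mef2c was added to Gata4 or to Tbx5, a comparison without GMT or M libraries, as were 11.7% of all regions tested. In GT, 8 of 10 were called lower than in the control, as were 5.81%. These counts were 7 and 7 without the library labelled GT replicate 1, and 6 and 9 without GMT replicate 1 in the shared fit. The first was chr4:13444110-13444312, at 28.1, 2.58 and 4.96 CPM in GMT, against 96.9, 66.2 and 84.3 CPM in M (log2 fold change -3.34 ± 0.60, edgeR adjusted p = 0.000172). GMT replicate 1 was well above the other GMT libraries there, and below every M library, as the rule for naming regions required. MT averaged 20.9 ± 6.08 CPM and GM 31.4 ± 4.49 CPM, and the control stood at 59.7 ± 12.8 CPM. The second, chr11:32846515-32846968, was a region nearly closed outside the Mef2c groups. It had 16.1, 24.5 and 23.8 CPM in GMT, against 182, 202 and 204 CPM in M (log2 fold change -3.12 ± 0.39, edgeR adjusted p = 4.02e-06). MT had 62.3 ± 27.4 CPM and GM 37.4 ± 13.1 CPM, and the means of GT, T and G were 7.39, 6.5 and 9.8 CPM, with the control at 8.41 CPM. Addition of Mef2c to Gata4 or Tbx5 raised it by a log2 fold change of 2.67 ± 0.32 (edgeR adjusted p = 5.81e-07).

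A different kind of fall was a region as open in the control as in M. At the third, chr17:54298178-54298390, GMT had 32.1, 6.45 and 9.91 CPM, against 98.6, 96.2 and 86.5 CPM in M (log2 fold change -2.87 ± 0.58, edgeR adjusted p = 0.000646), and the control had 96.6 ± 27.7 CPM. All groups with Gata4 or Tbx5 had means of at most 33.7 CPM there. At the sixth, chr15:76867479-76867679, GMT had 8.03, 11.6 and 9.91 CPM, against 68.5, 74.5 and 55.5 CPM in M (log2 fold change -2.68 ± 0.42, edgeR adjusted p = 5.45e-05). MT and GM had 38.9 ± 11.7 and 33.3 ± 7.04 CPM, G had 52.1 ± 23.5 CPM and the control 84.5 ± 6.8 CPM. GMT had the lowest mean of all 8 groups at this region.

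The remaining falls were chr11:109551464-109551880, chr6:117502478-117502837, chr8:32112598-32112811, chr11:16716933-16717258, chr9:105666838-105667290 and chr14:15665506-15665915, with log2 fold changes of -2.83, -2.69, -2.68, -2.58, -2.57 and -2.55. The call at chr11:16716933-16717258 (edgeR adjusted p = 0.00521) was lost without GMT replicate 2 (-2.13, edgeR adjusted p = 0.0554) and without GMT replicate 3 (-1.99, edgeR adjusted p = 0.0706). Without GMT replicate 1, the high GMT library at most of these regions, the log2 fold change was -3.79 there, -4.43 at chr4:13444110-13444312, -3.56 at chr17:54298178-54298390 and -3.53 at chr9:105666838-105667290. Over the 10 falls, group means ran from 9.85 to 21.4 CPM in GMT, 15.9 to 62.3 CPM in MT, 23.2 to 47.8 CPM in GM, 38.9 to 196 CPM in M and 8.41 to 96.6 CPM in the control.

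**Figure D3:**
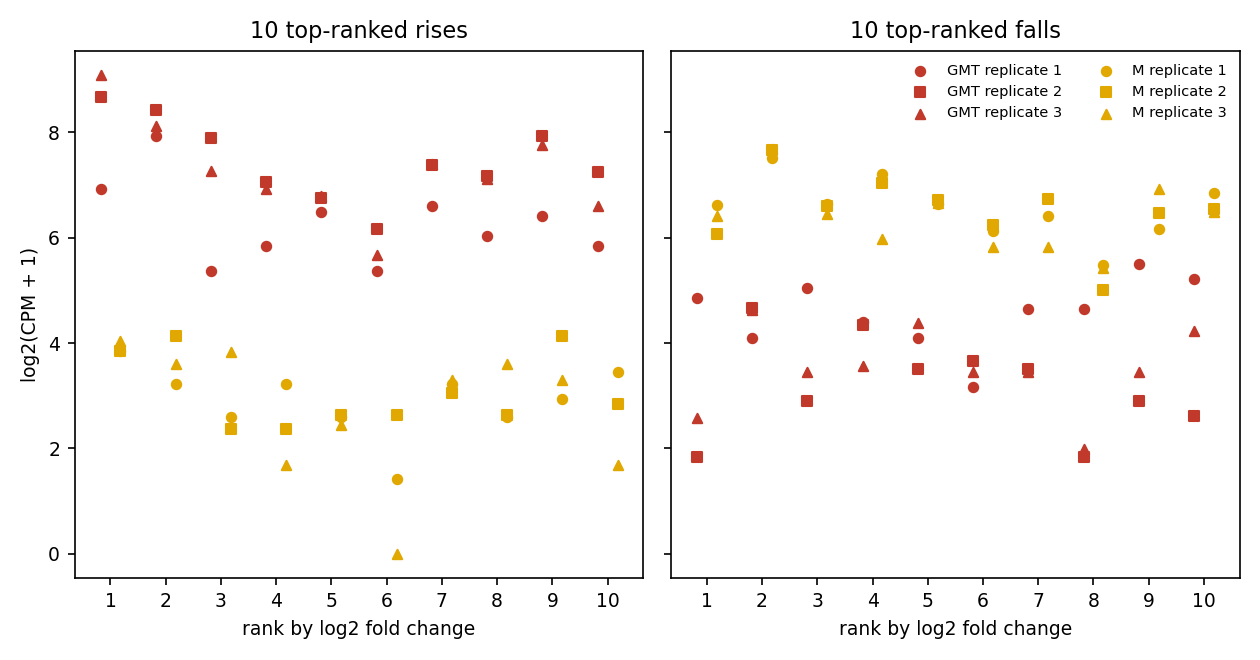
Levels in log2(CPM + 1) of the 10 top-ranked rises (left) and falls (right) in each GMT (red) and M (yellow) library, by rank; the marker shape gives the replicate. GMT replicate 1 (red circles) is the lowest GMT library at all 10 rises and the highest at 7 of 10 falls. The groups overlap in no column because regions were picked that way.

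Whether the pair with Tbx5 or the pair with Gata4 was higher at the changed regions was asked by testing MT against GM, which uses no GMT or M library and is matched for the inhibitors. Of the 3833 regions higher in GMT, 1374 (35.8%) were higher in MT than in GM, 215 (5.61%) were lower and 2244 (58.5%) were not called. Over all regions tested, 12% were higher in MT and 5.46% lower, so the share higher in MT stood well above the background and the share lower did not. The 1374 were 56% of the 2452 regions higher in MT, and the 215 were 19.2% of the 1118 regions lower in MT. Of the 1504 regions lower in GMT, 57 (3.79%) were higher in MT and 37 (2.46%) lower, both below the background. The median log2 fold change of MT over GM was 0.96 at regions higher in GMT, -0.01 at regions lower in GMT and -0.03 over all regions tested.

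These counts depended on the libraries. MT against GM had 1393 regions higher without GM replicate 3, 1466 without GM replicate 1 and 1508 without MT replicate 1. It had 386 lower without MT replicate 1, 563 without GM replicate 3, 652 without MT replicate 2 and 686 without GM replicate 1. Without GM replicate 3, GM replicate 1, GMT replicate 2, M replicate 2 and M replicate 1 in turn, the 1374 became 832, 903, 871, 877 and 880. The 215 became 81 without MT replicate 1 and 120 without MT replicate 2, 113 and 121 without GM replicates 3 and 1, 106 and 118 without GMT replicates 2 and 3, and 101 and 123 without M replicates 2 and 1. Without GMT replicate 1 the numbers were 1392 and 254.

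**Figure D4:**
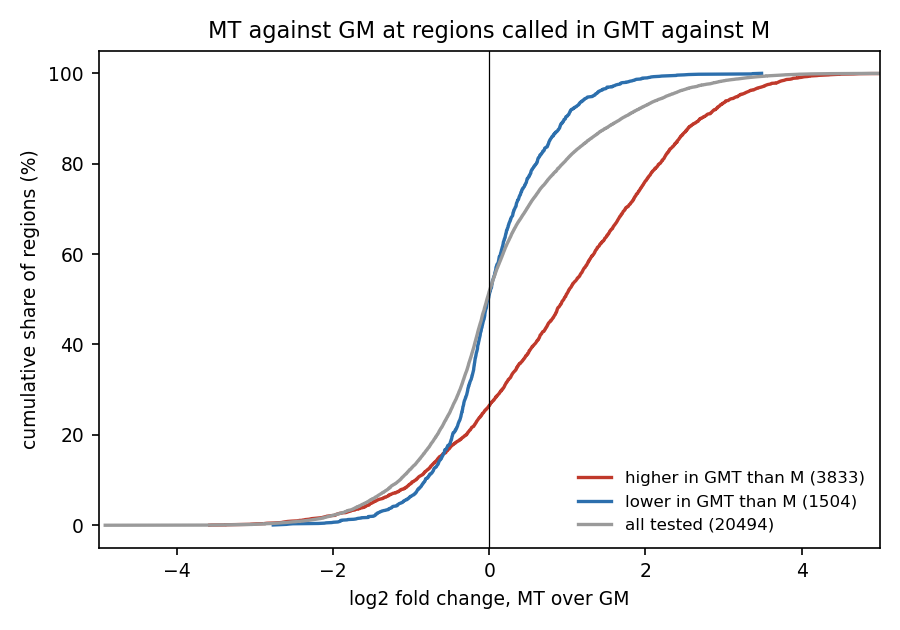
Cumulative share of regions (y axis, percent) by the log2 fold change of MT over GM (x axis), for regions higher in GMT than in M (red), lower in GMT than in M (blue) and all regions tested (grey). The red curve lies to the right, with a median of 0.96, and the blue and grey curves cross 50% near 0.

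The 3 classes of higher regions differed in group level in the libraries that neither test used. At the 1374 regions higher in MT than in GM, the median was 59.5 CPM in T and 9.04 CPM in G. At the 215 lower in MT than in GM, it was 10.6 CPM in T and 59.1 CPM in G. At the 2244 not called, T had 23.3 CPM and G 18.3 CPM, and GT had 29.7 CPM, above both, or 34.2 CPM without the library labelled GT replicate 1. The control was at 9.25, 11.8 and 9.22 CPM in the same order of classes.

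Regions called in GMT against M were ranked by the ratio of MT to GM if their mean level over all 24 libraries was at least 4.4 in log2 CPM. Among these, the highest ratio was at chr2:18752751-18752960 (log2 fold change of MT over GM 5.88 ± 0.74, edgeR adjusted p = 5.67e-06). It had 116, 130 and 127 CPM in MT, against 1.97, 0 and 3.16 CPM in GM, and it averaged 149 ± 24.1 CPM in T. All GMT libraries, at 72.2, 81.3 and 60.5 CPM, were above all M libraries, at 10, 4.14 and 6.65 CPM. Next came chr12:9244394-9244756 (4.70 ± 0.59, edgeR adjusted p = 5.67e-06), with means of 179 CPM in MT and 6.79 CPM in GM, and then chr17:73371686-73372265, described above.

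Among the same ranked regions, the lowest ratio was at chr1:75452098-75452357 (log2 fold change of MT over GM -3.56 ± 0.66, edgeR adjusted p = 0.000346). There GMT had 24.1, 31 and 14.9 CPM, against 10, 3.1 and 6.65 CPM in M, from 6, 3 and 3 counts in the M libraries. GMT over M was called there near the threshold, at a log2 fold change of 1.86 ± 0.70 (edgeR adjusted p = 0.0479). MT had 5.66 ± 2.16 CPM, GM 59.4 ± 40 CPM and G 110 ± 65.4 CPM. At chr17:66612117-66612438 (-3.38 ± 0.52, edgeR adjusted p = 4.83e-05) GMT had 24.1, 72.2 and 71.4 CPM, against 13.4, 6.21 and 6.65 CPM in M, and GM and GT averaged 67.8 and 71.2 CPM. At chr5:107876951-107877176 (-3.06 ± 0.51, edgeR adjusted p = 0.000114) GMT had 20.1, 23.2 and 19.8 CPM, against 8.36, 3.1 and 8.87 CPM in M, from 5, 3 and 4 counts. GMT over M was again called near the threshold at this region, at a log2 fold change of 1.75 ± 0.62 (edgeR adjusted p = 0.0341). The level was 190 ± 66.2 CPM in G and 77.7 ± 27.5 CPM in GM, both above the GMT mean of 21 ± 1.89 CPM.

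The 2 single additions were set beside the joint one. They share the M libraries with it, so only their own values are given. MT against M called 2129 regions higher (10.4%) and 424 lower (2.07%), and GM against M called 542 higher (2.64%) and 384 lower (1.87%). At the top-ranked rise the log2 fold change over M was 4.70 ± 0.61 in GMT, 4.22 ± 0.60 in MT and 0.90 ± 0.68 in GM. At the top-ranked fall it was -3.34 ± 0.60 in GMT, -2.03 ± 0.51 in MT and -1.41 ± 0.49 in GM.

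Whether the joint change differed from the sum of the single changes on the log scale was tested by the interaction of Gata4 and Tbx5 on Mef2c. By edgeR's quasi-likelihood test 0 regions (0%) were called, with a lowest adjusted p of 0.43. At an unadjusted p under 0.05 there were 889 regions (4.34% of those tested), 417 above the sum and 472 below it. DESeq2 called 0 regions and had 755 at an unadjusted p under 0.05. The median SE of the interaction was 0.71 on the log2 scale, against 0.51 for GMT over M, and the absence of calls does not show that the sum holds. At the top-ranked rise the estimate was -0.42, with a 95% interval of -2.08 to 1.23. At chr2:103498551-103499088 it was 0.92 (-1.09 to 2.93), and at chr5:107876951-107877176 -2.43 (-4.09 to -0.77), which was not called either (edgeR adjusted p = 1).

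Gata4 and Tbx5 without Mef2c were then examined in GT against the control, which shares no library with GMT or M but includes the inhibitors. Of the 3833 regions higher in GMT than in M, 1853 (48.3%) were higher in GT than in the control and 11 (0.287%) lower, against 13.1% and 5.81% over all regions tested. The 1853 were 69.1% of the 2681 regions higher in GT. Of the 1504 regions lower in GMT, 232 (15.4%) were lower in GT than in the control and 3 (0.199%) higher, and the 232 were 19.5% of the 1191 lower in GT. The median log2 fold change of GT over the control was 1.46 at regions higher in GMT than in M, -0.54 at regions lower and 0.05 over all tested. Most regions that rose on adding Gata4 and Tbx5 to Mef2c thus had a positive value without Mef2c too, 3531 of 3833 (92.1%, against 52.4% of all tested). Without the library labelled GT replicate 1 the medians were 1.69, -0.69 and -0.04 in the same order, and 93.5% were positive.

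When each comparison was fitted on its own groups alone, 1483 regions were higher in GT than in the control, and 942 took the place of the 1853. With the library labelled GT replicate 1 left out, GT against the control had 2882 higher and 1100 lower, and it had 983 and 428 without GT replicate 2, 1558 and 593 without control replicate 2, and 1074 and 562 without control replicate 3. Under loess offsets GT against the control had 2015 higher and 1510 lower, and 1219 and 540 took the place of the 1853 and the 232. Without the library labelled GT replicate 1 these shared counts were 2282 and 251. They were 599 and 78 without GT replicate 2, 1150 and 126 without control replicate 2, and 854 and 140 without control replicate 3. Without GMT replicate 2 they were 1163 and 120, and the 232 became 110 without GMT replicate 3 and 442 without GMT replicate 1.

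Regions that changed when Mef2c was added were picked in libraries other than GMT and M, and their levels in GMT and M were then read. The average change on adding Mef2c to G and to T was called positive at 2406 regions (11.7%) and negative at 403 (1.97%). These are the regions said here to be raised or lowered by Mef2c. The groups compared also differ in their number of factors, so an action of Mef2c cannot be told apart from that. The 2406 raised regions had a median of 24.1 CPM in GMT and 36 CPM in M, with 27.4 CPM in MT and 26.1 CPM in GM, while the control was at 9.91 CPM. By library the median was 20.1, 23.2 and 26.8 CPM in GMT and 36.8, 35.2 and 35.5 CPM in M, so all GMT libraries lay below all M libraries and above the control libraries, at 13.4, 10.4 and 7.57 CPM. Of the 2406, 560 (23.3%) were lower in GMT than in M, where 7.34% of all regions tested were, and 165 (6.86%) were higher, where 18.7% were. The median log2 fold change of GMT over M was -0.57 at these regions, and 714 of 2406 (29.7%) were above 0.

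The 403 lowered regions moved the other way. Of these, 216 (53.6%) were higher in GMT than in M and 1 (0.248%) was lower, and the median log2 fold change was 1.45. Their medians were 37.4 CPM in GMT and 11.4 CPM in M, with 47.7 CPM in GT, 48.1 CPM in T and 41.8 CPM in G. Under loess offsets the raised and lowered regions numbered 1806 and 809. The 403 became 211 without G replicate 3, 244 without G replicate 1, 791 without G replicate 2 and 795 without T replicate 3. The 165 became 82, 88, 91 and 92 without M replicate 2, GMT replicate 2, GMT replicate 3 and M replicate 1, and 87, 102, 103, 104 and 108 without MT replicate 2, GM replicate 3, T replicate 2, T replicate 1 and G replicate 3. The 560 became 591 without GMT replicate 1, 308 without GMT replicate 2 and 347 without GMT replicate 3.

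**Figure D5:**
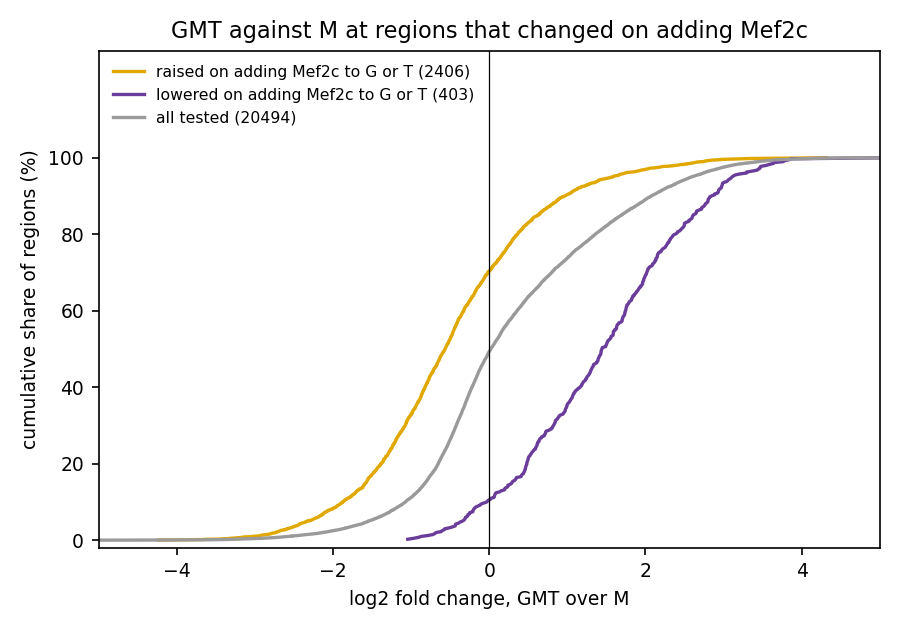
Cumulative share of regions (y axis, percent) by the log2 fold change of GMT over M (x axis), for the 2406 regions raised (yellow) and the 403 lowered (purple) when Mef2c was added to Gata4 or Tbx5, and for all regions tested (grey). The yellow curve lies left of the grey one, with a median of -0.57, and the purple curve right of it, with a median of 1.45.

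Seen from the other side, the 560 made up 37.2% of the 1504 regions lower in GMT. Their median was 14.3 CPM in GMT, against 51.3 CPM in M. The control, whose libraries neither selection used, was at 10.3 CPM. The other 944 lower regions had a median of 15.3 CPM in GMT, against 47.5 CPM in M, with the control at 35.4 CPM. The lower regions raised on adding Mef2c were thus near closed in the control, and the control median of the others was nearer to M than to GMT. The share called lower in GT than in the control was 16.1% for the 560 and 15% for the 944.

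Of the raised regions, those with a mean level over all 24 libraries of at least 4.4 in log2 CPM were ranked. That level takes in the GMT and M libraries, so an open state in them is partly set by the rule. The 5 with the largest average change on adding Mef2c to G and to T were open in both GMT and M. They were chr4:64237548-64237799, chr2:48254008-48254321, chr15:27554910-27555280, chr10:122957734-122957936 and chr15:27548996-27549292, and their group means ran from 58.2 to 163 CPM in GMT, 80.9 to 197 CPM in M and 7.87 to 23.4 CPM in the control. Only chr10:122957734-122957936 was called lower in GMT, at 72.2, 34.8 and 69.4 CPM against 147, 155 and 131 CPM in M (log2 fold change -1.33 ± 0.41, edgeR adjusted p = 0.0155). At chr15:27548996-27549292, GMT had 185, 160 and 146 CPM, against 202, 217 and 173 CPM in M (-0.29 ± 0.28, edgeR adjusted p = 0.459), and GT, T and G averaged 16.7, 15 and 18.3 CPM. The groups overlapped at this region.

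Regions higher in GMT were wider than the rest and more often near one another. Their median width was 319 bp, against 255 bp for lower regions and 261 bp over all tested. The share called higher was 11.2% among regions under 250 bp, 20.7% from 250 bp to under 350 bp, 26.9% from there to under 500 bp and 38.9% at 500 bp or more. The share called lower was 7.75%, 7.48%, 7.2% and 4.25% in the same classes. Median total counts per region rose along these classes too, at 323, 440.5, 561 and 934, and the part of depth in the trend was not tested. Another higher region lay within 50 kb of 44.6% of the higher regions and of 30% of all regions tested. Another lower region lay within 50 kb of 13.3% of the lower regions and of 11.5% of all tested. By chromosome, the share called higher ran from 14.9% on chromosome 15 to 22.1% on chromosome 1.

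Higher regions formed 24 runs of 5 or more in which each lay at most 50 kb from the next, and lower regions formed 0, with at most 3 in a run. Higher regions numbered 3833 and lower ones 1504, and runs are rarer among fewer regions. The part of this difference in number was not tested. There were 35 such runs of higher regions without GMT replicate 1 and 37 without the library labelled GT replicate 1. The longest run, chr10:76829648-76994181, spanned 164.5 kb and held 10 higher regions and 1 lower region among 14 tested. The mean level of its higher regions was 47.6 CPM in GMT and 15.7 CPM in M, with 93.1 CPM in T, 65.1 CPM in MT and 16.5 CPM in GM. The second, chr2:156445555-156565824, had 9 higher regions of 12 tested, at 49.4 CPM in GMT and 11.6 CPM in M, again with T highest at 65.7 CPM. In the third, chr18:60784941-60922306, 9 of 10 regions were higher, at 99.8 CPM in GMT and 23.1 CPM in M. There the other groups were closer together, at 72.9 CPM in GT, 60.1 CPM in MT, 56.6 CPM in T, 52.6 CPM in G and 38 CPM in GM.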

How the data were processed

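The deposited values are raw ATAC-seq counts per region, with no normalisation, for 30815 regions of 201 to 1484 bp. The submitters' processing notes name Bowtie2, Picard, featureCounts and mm9. The definition of the regions, the reads removed and the unit counted (read or fragment) are not given in the sources used here. Groups came from the labels. The filter filterByExpr of edgeR 4.0.16 (minimum count 10, minimum total 15; R 4.3.3, limma 3.58.1) left 20494 regions (66.5%). All 8 groups entered 1 quasi-likelihood fit with TMM scaling, and the root of its common dispersion was 0.29. Benjamini-Hochberg adjustment ran over all regions of a comparison, with calls at an adjusted p below 0.05. SEs were derived from the fold change and its F statistic. CPM use TMM-scaled totals (prior count 2 for log2 CPM). The procedure was also run on simulated data in which few regions changed, as many raised as lowered, so that run does not test the scaling. Named regions are the 10 highest and 10 lowest for GMT over M, and 3 and 3 for MT over GM among regions called in GMT against M. Also named are the 5 highest on adding Mef2c and the 3 longest runs. All but the runs were picked among regions with a mean level over all 24 libraries of at least 4.4 in log2 CPM. No interaction was called, so none is named. Members, lists and rules were chosen with earlier results of these data known. Alternatives were RLE factors, total counts, loess offsets (span 0.3), DESeq2 1.42.0, no filter, a minimum count of 30, the compared groups only, a replicate block, a minimum fold of 1.5, an adjusted p below 0.01 and leaving out libraries.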

Additional observations from a re-analysis of the deposited data

How the results depend on the processing

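Each region named by a rule on fold change was checked in the comparison that named it. There it kept its direction under each alternative that gave it a value, and calls were lost only as stated in the report. Calls of GMT over M at regions named by another comparison were not checked in this way. Of these, chr1:75452098-75452357, chr5:107876951-107877176 and chr10:122957734-122957936 had an edgeR adjusted p of 0.0479, 0.0341 and 0.0155, above the stricter 0.01. The interaction had 0 calls under every alternative. RLE factors, total counts, DESeq2, no filter and the replicate block moved no count by over 1.5 times. With the replicate block 3874 regions were higher and 1438 lower in GMT than in M. Same-numbered GMT and M libraries had deviations from their group means that correlated at -0.02, 0.14 and -0.05. Only GMT replicate 2 correlated best with its own number. No pairing by number was seen, but with so few libraries per group these values cannot exclude one. GMT replicate 1 had a median of 6 counts per region tested, the fewest of the 24 libraries, and the part of depth in the calls was not tested.

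Loess offsets gave 2344 regions lower in GMT than in M, 809 lowered by Mef2c, 137 higher in GMT and lower in MT than GM, 77 higher in GMT and raised by Mef2c, and 1219 higher and 540 lower in GMT as in GT over control. With only the compared groups, GT over control had 1483 higher regions, 942 of them higher in GMT than in M.

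A minimum count of 30, which tests fewer regions, gave 1988 higher and 769 lower for GMT over M, 1299 and 512 for MT over GM, 1033 and 176 for Mef2c added, and 1318 and 544 for GT over control. The minimum fold of 1.5 gave 713 lower for GMT over M, 552 lower for MT over GM, 1411 and 37 for Mef2c added, and 1677 and 526 for GT over control. An adjusted p below 0.01 gave 2287 and 558, 1348 and 387, 1535 and 91, and 1269 and 376 in the same order of comparisons.

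Under the minimum count, the minimum fold and the stricter p in turn, regions higher in GMT and higher in MT than GM numbered 863, 838 and 641. Those higher in GMT and lower in MT than GM numbered 138, 84 and 52, those lower in GMT and raised by Mef2c 229, 240 and 192, and those higher in GMT and raised by Mef2c 94, 51 and 48. Those higher in GMT and in GT over control numbered 1039, 1118 and 807, and those lower in both 110, 65 and 38. The minimum fold and the stricter p call fewer regions by construction, and the cause of the shift under loess offsets was not tested.

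Leaving out 1 library at a time gave 2167 to 4215 higher and 744 to 2004 lower for GMT over M, 1393 to 2829 and 386 to 1368 for MT over GM, 1774 to 2691 and 211 to 795 for Mef2c added, and 983 to 2882 and 428 to 1334 for GT over control. The shared counts ran from 832 to 1627 and 81 to 255 for higher in GMT with higher and lower in MT than GM, 308 to 713 for lower in GMT and raised by Mef2c, 82 to 218 for higher in GMT and raised by Mef2c, 599 to 2282 for higher in GMT and GT, and 78 to 442 for lower in both.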
